A study of Mus musculus with 88 samples.

Results

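The data concern the transcripts of 10 core genes of the circadian clock, Arntl, Clock, Per1, Per2, Per3, Cry1, Cry2, Nr1d1, Nr1d2 and Dbp, in the brains of mice after chronic social defeat stress (CSDS). The genes were chosen by name as parts of the clock, and their Ensembl identifiers were matched to symbols of the GRCm38 annotation. All 10 were present in each of the 3 region tables, out of 18946 genes for the medial prefrontal cortex (mPFC), 48795 for the bed nucleus of the stria terminalis (BNST) and 19559 for the ventral hippocampus (vHPC).

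In CSDS a mouse is repeatedly defeated by a larger aggressor and is then called resilient or susceptible from its behavior toward a social target. Male mice of the inbred strains C57BL/6Crl (B6) and DBA/2Crl (D2), as the labels spell them (C57BL/6NCrl and DBA/2NCrl in the study's methods), were used, aged 8 weeks at dissection, with defeated mice and undefeated controls of the same strain. Tissue was taken 6 to 8 days after the end of CSDS, and all mice were killed between 8 and 11 in the morning, in an order balanced over conditions. RNA depleted of ribosomal RNA was sequenced in 88 libraries, each from 1 region of 1 mouse. The mPFC groups held 6 B6 control, 6 B6 resilient, 6 B6 susceptible, 6 D2 control and 8 D2 susceptible mice. The BNST groups held 5 mice each of the B6 control, B6 resilient, B6 susceptible, D2 control and D2 susceptible classes and 3 D2 resilient mice. The vHPC groups held 6 B6 control, 8 B6 resilient, 3 B6 susceptible, 6 D2 control and 5 D2 susceptible mice. The inbred strains carried no transgene, the phenotype classes were set by behavior and not assigned, and the hour at which each mouse died within the window is not given in the sources used here.

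The circadian clock is a feedback loop of transcription. Clock pairs with the protein of Arntl (also called Bmal1) to activate genes that carry E-boxes, among them the Period genes (Per1, Per2, Per3), the Cryptochromes (Cry1, Cry2), the nuclear receptors Nr1d1 and Nr1d2 (REV-ERB alpha and beta) and Dbp. Period and Cryptochrome proteins return to the nucleus and repress the pair, whereas the REV-ERB receptors repress Arntl through elements they share with the ROR receptors. In tissues with a running clock the transcript of Arntl therefore peaks at about the opposite phase to that of Dbp and Nr1d1, Dbp being an output of the loop that acts on genes with D-boxes. Per1 and Per2 also respond within a short time to neuronal activity and glucocorticoids.

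Promoter windows are shown for 4 of the genes, since the pairing of Arntl with Dbp and the separate behavior of Per1 and Per3 carry the results. Each window runs from 250 bases before to 50 bases after a start annotated by RefSeq on GRCm38.p6, 5′ to 3′ on the strand of the gene, and capitals mark the motif letters found. The windows lie at chr7:113207215-113207514 (Arntl, plus strand), chr7:45704997-45705296 (Dbp, plus strand), chr4:151044616-151044915 (Per3, minus strand) and chr11:69098699-69098998 (Per1, plus strand).
Arntl: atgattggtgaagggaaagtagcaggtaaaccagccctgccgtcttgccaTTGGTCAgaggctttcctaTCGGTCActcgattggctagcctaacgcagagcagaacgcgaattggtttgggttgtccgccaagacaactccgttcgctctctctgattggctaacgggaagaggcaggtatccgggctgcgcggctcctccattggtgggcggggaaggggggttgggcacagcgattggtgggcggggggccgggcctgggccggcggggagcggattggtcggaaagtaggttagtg
Dbp: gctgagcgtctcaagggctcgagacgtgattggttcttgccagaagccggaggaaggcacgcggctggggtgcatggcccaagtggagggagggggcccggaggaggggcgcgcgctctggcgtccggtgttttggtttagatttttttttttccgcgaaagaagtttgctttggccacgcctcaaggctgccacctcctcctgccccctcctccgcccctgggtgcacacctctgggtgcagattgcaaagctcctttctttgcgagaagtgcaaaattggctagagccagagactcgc
Per3: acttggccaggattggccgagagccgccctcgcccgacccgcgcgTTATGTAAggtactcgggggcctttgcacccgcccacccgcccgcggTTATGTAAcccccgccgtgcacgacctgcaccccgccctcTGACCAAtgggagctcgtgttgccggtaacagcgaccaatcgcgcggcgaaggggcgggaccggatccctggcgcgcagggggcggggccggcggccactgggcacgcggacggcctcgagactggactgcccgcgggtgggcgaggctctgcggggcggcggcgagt
Per1: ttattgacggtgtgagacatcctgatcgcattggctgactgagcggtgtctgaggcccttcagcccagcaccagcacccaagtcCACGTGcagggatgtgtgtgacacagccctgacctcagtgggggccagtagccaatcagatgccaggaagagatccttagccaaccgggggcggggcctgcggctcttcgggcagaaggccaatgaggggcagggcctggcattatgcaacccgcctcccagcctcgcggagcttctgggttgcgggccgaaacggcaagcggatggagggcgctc

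The motifs searched, on both strands, were the E-box CACGTG, the related E′-box CACGTT, the D-box TTANGTAA and the CRE TGACGTCA. Also searched was TNGGTCA, a loose form of the core of the element bound by REV-ERB and ROR receptors. That core has A or G in the place of N, and the pattern also admits C and T. The Arntl window held 2 TNGGTCA matches, 200 and 181 bases before the start, with T and C as the N. The window of a second Arntl start held 3, and only the one 30 bases after that start, TAGGTCA, had A there. The Per3 window held 2 D-boxes, 205 and 158 bases before the start, and 1 TNGGTCA match at 118 bases, with T as the N. The Per1 window held 1 E-box 166 bases before the start, and the window of a second Per1 start held none of the 5 motifs. None of the 5 motifs was found in the Dbp window. The Cry1 window held an E-box at 60 and an E′-box at 79 bases before the start. That of Cry2 held an E′-box at 166 bases and a TNGGTCA match at 133 bases, with T as the N. That of Nr1d1 held an E′-box at 28 bases. The windows of Clock and Nr1d2 held none of the motifs, and 9 of the 10 genes had an entry, with 13 windows in all. Over all 32851 windows of 300 bases, 2349 held the E-box. The E′-box was in 4.68%, the D-box in 2.32%, a TNGGTCA match in 11% and the CRE in 1.79%. A match is a run of letters and not a measured binding site, and a window without a match says nothing about the factor.

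Library depth in the BNST ranged from 11825757 to 25793910 counts, and the rarest of the 10 transcripts there, Cry1, had 99 to 362 counts in a library. The mPFC and vHPC tables give log2 CPM (counts scaled to a common library total) without depth. The log2 summed level of 5 cortical markers had group medians of 8.56 to 8.75 in the mPFC, and that of 5 hippocampal markers 10.04 to 10.18 in the vHPC. In the BNST the 5 striatal markers summed to a median of 10.63 and the 5 BNST and septal markers to 6.35 over the 26 libraries that did not stand apart. BNST D2 control replicate 2 and BNST B6 susceptible replicate 3 stood apart from their groups over all genes, with median absolute deviations of 0.711 and 0.458 on the log2 scale. In bulk tissue fewer cells of a type and less RNA per cell cannot be told apart.

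All 10 transcripts were readily measured in every region. Per kilobase of exon, the scale on which genes can be compared, Nr1d2 stood highest in the mPFC at a mean log2 CPM per kb of 4.77 and in the vHPC at 4.698, followed by Clock at 4.46 and 3.91. The lowest levels per kb were those of Per1 in the mPFC (2.36) and of Cry1 in the vHPC (2.05) and BNST (2.00). In the BNST the order was headed by Nr1d1 (5.8), Dbp (5.05) and Per1 (4.72). On the log2 CPM scale the means of Nr1d1 for mPFC, BNST and vHPC were 4.67, 7.42 and 4.81, those of Per1 4.85, 7.2 and 5.38, and those of Dbp 4.46, 6.63 and 4.703. The 3 tables came from different library kits and were normalized separately, so no test was made between regions.

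The genes differed in how much they varied among mice of the same group. Clock, whose transcript is known to cycle little in many tissues, had a within-group SD of 0.05, 0.18 and 0.04 log2 units for mPFC, BNST and vHPC, at percentiles 1.45, 6.37 and 1.31 of all genes. Dbp (0.28) and Per2 (0.28) had the largest SDs of the 10 in the mPFC, against a median of 0.15 over all genes there. Per1 had the largest in the BNST (0.68, median gene 0.42) and in the vHPC (0.22, median gene 0.14).

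The first question was whether the arms of the clock moved against each other among mice of the same group. In the mPFC they did for Arntl and Dbp. Values are given as log2 CPM, lowest, median and highest. Arntl was 5.99, 6.15 and 6.19 in B6 controls, 5.98, 6.18 and 6.22 in B6 resilient mice, and 5.88, 6.06 and 6.24 in B6 susceptible mice. In D2 mice it was 5.92, 6.21 and 6.391 in controls and 5.99, 6.08 and 6.29 in susceptible mice. All 5 groups overlapped.

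Dbp was 4.02, 4.174 and 4.29 in B6 controls, 4.08, 4.168 and 4.50 in B6 resilient mice, and 3.96, 4.43 and 4.96 in B6 susceptible mice. In D2 mice it was 3.94, 4.82 and 5.13 in controls and 4.39, 4.77 and 5.16 in susceptible mice. The spread within D2 controls alone thus covered most of the range of the region. The D2 control mouse with the highest Arntl (6.391) had the lowest Dbp (3.94), and the D2 control mouse with the lowest Arntl (5.92) had the highest Dbp (5.13). Among B6 susceptible mice the one with the highest Arntl (6.24) had the lowest Dbp (3.96).

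**Figure D1:**
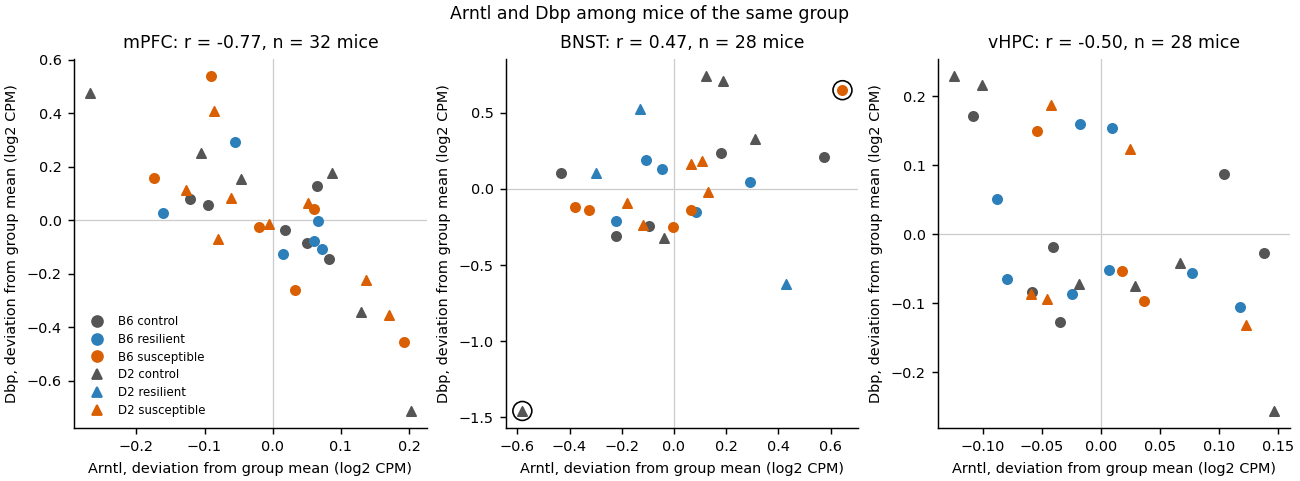
Deviation of Dbp (vertical axis) from its group mean against that of Arntl (horizontal axis), both in log2 CPM, 1 point per mouse, 1 panel per region. The points fall from upper left to lower right in the mPFC (r = -0.77, 32 mice) and less steeply in the vHPC (r = -0.50, 28 mice), and rise in the BNST (r = 0.47, 28 mice), where circles mark the 2 libraries that stood apart.

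Over the 32 mPFC mice the deviations of Arntl and Dbp from their group means had Pearson r = -0.77 and Spearman rho = -0.70, with permutation p-values of 3e-05 and 9e-05 from 100000 permutations of mice within groups. The slope was -1.77 log2 units of Dbp per log2 unit of Arntl (SE 0.29), and the coefficient was negative in 5 of 5 groups. Among the 18945 other genes tested against Arntl in limma, Dbp had the lowest statistic, with an adjusted p of 0.0227. Only 10 genes in all, 0.0528% of those tested, passed an adjusted p of 0.05, and Dbp was the 1 clock gene of 9 among them. With library set as a covariate r was -0.79 (limma, adjusted p = 0.049), and without the 2 mice farthest from the median of Arntl it was -0.73 (limma, adjusted p = 0.0859). Leaving out any 1 mouse gave r between -0.80 and -0.72. None of the marker sums for cell types or neighboring regions had an r beyond 0.30 in size with Arntl or beyond 0.23 with Dbp in the mPFC, the neuron markers coming closest in both cases. Other clock genes had larger values there, such as Clock with the neuron markers (r = 0.68) and Cry1 with the hippocampal markers (0.63). The part of tissue composition in the pair of Arntl and Dbp was not tested.

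The REV-ERB gene Nr1d2 sided with Dbp. Its mPFC values ran from 6.97 to 7.46 over all mice, and the groups had medians of 7.16 to 7.24 and overlapped. Against Arntl it gave r = -0.70 and rho = -0.63 (permutation p = 0.00012 and 0.00066), negative in 5 of 5 groups, and its limma adjusted p of 0.0523 missed the threshold. Against Dbp it gave r = 0.74 and rho = 0.72 (permutation p = 1e-05, the smallest that 100000 permutations can give, and 2e-05; limma, adjusted p = 0.00985).

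In the mPFC the Period gene Per3 behaved like Nr1d2. It gave r = 0.66 and rho = 0.59 with Dbp (permutation p = 0.00018 and 0.00114; limma, adjusted p = 0.0367) and r = -0.48 and rho = -0.41 with Arntl (permutation p = 0.011 and 0.0335). Together Arntl, Nr1d2 and Per3 were the 3 of 9 clock genes that passed in the mPFC fit on Dbp, where 0.913% of all genes did. Nr1d2 and Per3 also paired with each other, at r = 0.79. In the vHPC and BNST, Nr1d2 and Per3 gave r = -0.08 and 0.12. Per3 with Dbp gave 0.32 and 0.38 there and did not pass.

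The other mPFC pairings were looser. Nr1d1 gave r = 0.57 with Dbp (limma, adjusted p = 0.0689) and -0.33 with Arntl, and Cry1 gave -0.56 with Dbp (limma, adjusted p = 0.0885) and 0.25 with Arntl. Cry1 and Nr1d1 stood opposite each other at r = -0.76. They also went opposite ways with marker sums, at 0.63 and -0.42 with the hippocampal and -0.43 and 0.48 with the cortical markers. The part of these sums in the pair was not tested. Per1 (r = 0.42, permutation p = 0.0286) and Cry2 (r = 0.46, permutation p = 0.00474) leaned toward Arntl rather than Dbp, and neither passed after adjustment (limma, adjusted p = 0.241 and 0.214). In all, 17 pairs with Arntl or Dbp were computed in each region, and the adjusted p-values are over all genes tested.

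**Figure D2:**
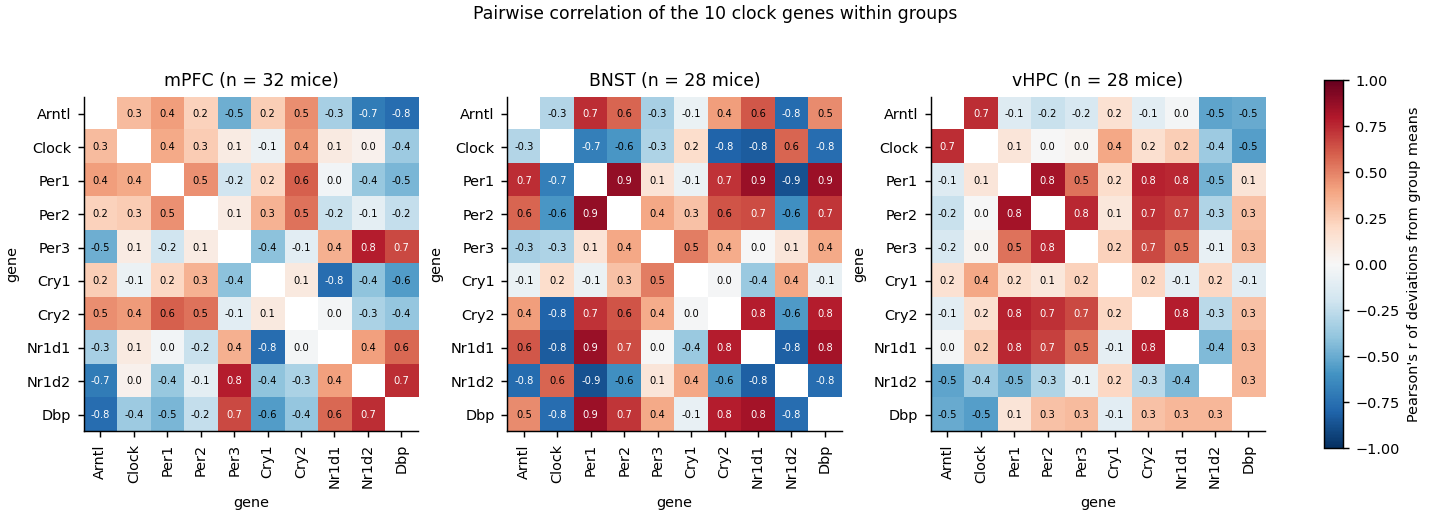
Pearson r of the deviations from group means for each pair of the 10 clock genes, 1 panel per region, color from -1 to 1. In the mPFC Dbp, Nr1d2 and Per3 are positive with each other and negative with Arntl, while in the BNST and vHPC Per1, Per2, Cry2 and Nr1d1 form a positive block.

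Other genes of the clock pathway, a list of 22 that includes kinases, ubiquitin ligases and D-box and E-box factors, were read in the same fits. In the mPFC 4 of the 22 passed with Dbp, where 0.913% of all genes did. Ciart, a repressor of the Clock pair, gave r = 0.85 and the highest statistic of all genes (limma, adjusted p = 9.77e-05), and Bhlhe41, a second E-box repressor, gave r = 0.71 (adjusted p = 0.0168). Nfil3, a D-box repressor that opposes Dbp, gave r = -0.74 (limma, adjusted p = 0.00873), and the deadenylase Noct gave r = -0.64 (adjusted p = 0.0411). None of the 22 passed with Arntl in the mPFC, although 7 had an unadjusted p under 0.05, as did 15.9% of all genes.

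The genes most like Arntl and Dbp in the mPFC, taken as the 5 highest and 5 lowest statistics over 32 mice, were mostly outside the pathway. With Arntl the 5 lowest were Dbp, Cirbp (r = -0.75), Hnrnpdl (-0.76), 4833420G17Rik (-0.75) and Gm37268 (-0.72), and the 5 highest were Akt2 (0.75), Egr3 (0.72), Plk3 (0.71), Cx3cl1 (0.72) and Vgf (0.70). Cirbp encodes a cold-inducible RNA-binding protein, and Egr3 and Vgf are induced by neuronal activity. With Dbp the 5 highest were Ciart, Nkx2-2os (0.77), Brca2 (0.77), Mipol1 (0.76) and Cep131 (0.75), and the 5 lowest were Dnajb5 (-0.82), Sgsm1 (-0.78), Fosl2 (-0.75), Arntl and Sbk1 (-0.75). Dnajb5 is a heat-shock co-chaperone and Fosl2 a member of the Fos family.

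In the vHPC the same pairing pointed the same way with less slope. Arntl ran from 5.16 to 5.404 in B6 controls and from 5.25 to 5.52 in D2 controls, with medians of 5.23 and 5.38. Dbp ran from 4.399 to 4.697 and from 4.59 to 5.08 in those groups, with medians of 4.50 and 4.79. The B6 and D2 controls overlapped for both genes. Arntl and Dbp gave r = -0.50 and rho = -0.44 over 28 mice (permutation p = 0.0164 and 0.0383), negative in 5 of 5 groups. The limma adjusted p was 0.228, with library set as a covariate r was -0.37, without the 2 mice farthest in Arntl it was -0.42, and leaving out vHPC D2 control replicate 3 brought it to -0.40.

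Arntl also ran against Nr1d2 in the vHPC (r = -0.52, rho = -0.48, permutation p = 0.00433 and 0.0121) and with its partner Clock (r = 0.74, rho = 0.69, permutation p = 4e-05 and 0.00027), and Clock ran against Dbp (r = -0.55, rho = -0.61, permutation p = 0.00355 and 0.00217). No pair passed over all genes (limma, adjusted p of 0.153 or more). Of the 9 clock genes 0 passed with Arntl, where 0.230% of all genes did, and 0 passed with Dbp, where 0% did, with 1727 genes at an unadjusted p under 0.05. None of the 22 pathway genes passed with either. The Arntl deviations had r = 0.60 with the oligodendrocyte marker sum in the vHPC. Those of Nr1d2 had r = -0.74 with the hippocampal marker sum, with which Arntl had 0.38. The part of these sums in the pairs was not tested.

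The highest statistics with Arntl in the vHPC belonged to ENSMUSG00000108658 (r = 0.79), Dclre1c (0.84), Zc3hav1 (0.77), Rasgrp3 (0.78) and Naa80 (0.77), and the lowest to D330025C20Rik (-0.88), Cables1 (-0.86), Tmem132c (-0.85), Gm17244 (-0.83) and Gm13620 (-0.79). With Dbp the extremes did not pass the threshold, the first on each side being Gm30648 (r = 0.78) and 1700016P03Rik (-0.75). No gene passed with the same sign in all 3 regions for either anchor. For Dbp none could, since nothing passed in the vHPC. For Arntl only 10 genes passed in the mPFC and 45 in the vHPC, which left little room for a shared gene.

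The vHPC had a second pattern among the members. Per1, Per2, Cry2 and Nr1d1 moved together from mouse to mouse, less so by rank. Per1 and Per2 had r = 0.84 and rho = 0.60, and Cry2 and Nr1d1 r = 0.79 and rho = 0.62. Per1 had r = 0.77 and rho = 0.42 with Cry2, and r = 0.75 and rho = 0.41 with Nr1d1. The SD of Per1 was 0.37 in B6 resilient mice and 0.13 or less in the other vHPC groups. These genes also went with marker sums of cell composition. Cry2 had r = 0.82 with the 5 cortical markers and Nr1d1 r = 0.82 with the 6 neuron markers over 28 mice, and Per1 had 0.74 with the cortical markers. Whether composition accounts for the block was not tested. One of the cortical markers, Rorb, is also on the clock-pathway list.

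In the BNST the relation of Arntl to Dbp changed sign with the model. It was r = 0.47 and rho = 0.43 over 28 mice (permutation p = 0.0354 and 0.0562; edgeR quasi-likelihood, adjusted p = 0.0516), was negative in 1 of 6 groups, and was 0.44 with library set as a covariate and 0.38 without the 2 mice farthest in Arntl. With the first principal component of the within-group deviations as a covariate it was -0.46. The libraries that stood apart lay far out on both genes. BNST D2 control replicate 2 had an Arntl of 4.91 and a Dbp of 4.81, the lowest of all 28 mice for both, and BNST B6 susceptible replicate 3 had a Dbp of 7.44, the highest of all, and an Arntl of 6.20, below only a B6 control at 6.22. Without these 2 libraries r was 0.018 (edgeR, adjusted p = 0.941), and leaving out BNST D2 control replicate 2 alone gave 0.26, whereas leaving out BNST D2 resilient replicate 3 alone gave 0.67. The difference between regions was not tested.

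Arntl and Nr1d2 stood opposite each other in the BNST too. Nr1d2 was 5.35 to 6.47 in B6 controls and 5.64 to 7.37 in D2 controls, with medians of 6.385 and 6.09, and the groups overlapped. The pair gave r = -0.77 and rho = -0.71 (permutation p = 3e-05 and 1e-04; edgeR, adjusted p = 0.000409), negative in 6 of 6 groups, and r = -0.64 without the 2 libraries that stood apart (edgeR, adjusted p = 0.0369). It did not pass without the library scaling factors of edgeR (TMM; r = -0.40; edgeR, adjusted p = 0.213) or with the first component as a covariate (r = -0.39; adjusted p = 0.374). It was thus negative in all 16 groups over the 3 regions, some of the mice being shared by the mPFC and vHPC. The pair is 1 of 17 computed in each region, and how many other genes keep 1 sign with Arntl in all groups is not given. In the BNST 36.50% of all genes passed with Arntl, and the first component had r = 0.73 with Arntl and -0.88 with Nr1d2.

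The remaining BNST pairings followed a single axis on which much of the transcriptome also lay. With Arntl 4 of 9 clock genes passed in edgeR, Per1 (r = 0.74), Nr1d1 (0.62) and Per2 (0.59) on the positive side and Nr1d2 on the negative side, where 36.50% of all genes passed. With Dbp 7 of 9 passed, where 48.68% of all genes did. Per1 (0.85), Nr1d1 (0.83), Cry2 (0.79), Per2 (0.72) and Arntl were positive, and Clock (-0.76) and Nr1d2 (-0.76) negative. Without BNST D2 control replicate 2 Clock was at -0.40 and Cry2 at 0.49. The first principal component of the within-group deviations held 29.3% of the variance in the BNST, 28.3% in the mPFC and 25.4% in the vHPC. In the BNST it had r = 0.92 with Per1, 0.92 with Nr1d1, 0.86 with Dbp and -0.88 with Nr1d2. That of the vHPC had r = 0.72 with Per1, 0.71 with Cry2, 0.67 with Nr1d1, 0.64 with Per2 and -0.54 with Nr1d2. In the mPFC the largest of the 10 in size was 0.38, for Cry1.

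Without the 2 libraries that stood apart, 2 of 9 passed with Arntl (Per1 and Nr1d2) against 5.42% of all genes, and 1 of 9 passed with Dbp (Per1, r = 0.63) against 4.2%. With the first component as a covariate none passed with either. The summed level of 5 striatal markers had r = 0.74 with Per1, 0.73 with Dbp, 0.71 with Arntl and -0.80 with Nr1d2, and without the 2 libraries these were 0.69, 0.73, 0.54 and -0.79. BNST B6 susceptible replicate 3 had the highest striatal sum (12.40, all others 8.83 to 11.55). The part of dissection in these values was not tested.

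Of the other clock-pathway genes 6 of 22 passed with Arntl in the BNST (4 positive, 2 negative), where 36.50% of all genes did. With Dbp 11 of 22 passed (7 positive, 4 negative), where 48.68% of all genes did. The Clock paralog Npas2 gave r = 0.82 with Arntl, the ubiquitin protease Usp2 r = 0.92 with Dbp, and Ciart r = 0.74 with Dbp. Among the genes highest with Arntl were the activity-induced Egr1 (r = 0.87), Fosl2 (0.85) and Nr4a1 (0.82) and also Rundc1 (0.85), and the lowest were Ikbkg (-0.87), Fam199x (-0.83), Herc4 (-0.86), Armh4 (-0.85) and Sema3c (-0.80). With Dbp the highest were Matk (0.95), Grik5 (0.93), Lrrc10b (0.92), Rasl10b (0.92) and Shf (0.93), and the lowest Hspa4l (-0.93), Selenot (-0.90), Bicd1 (-0.90), Abhd17b (-0.89) and Gm44742 (-0.88).

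Since 7 mice were measured in both the mPFC and the vHPC, it was asked whether a mouse that deviated in 1 region deviated in the other. The deviations of Arntl in the mPFC and the vHPC were 0.07 and 0.14 in a first B6 control, 0.05 and 0.10 in a second, -0.16 and -0.02 in a first B6 resilient mouse and 0.06 and 0.01 in a second. In D2 mice they were -0.27 and -0.10 in a control, -0.06 and -0.05 in a susceptible mouse and 0.17 and 0.12 in another. The sign was the same in 7 of 7 mice.

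The coefficient for Arntl was r = 0.87 and rho = 0.89 (exact two-sided permutation over 5040 pairings, p = 0.0115 and 0.0123), at percentile 99.0 of 17426 genes, of which the median gene had r = 0.18. After adjustment over all genes the exact p was 0.799. No gene passed at an adjusted p of 0.05 (0% of genes), and 6.09% had an exact p under 0.05, of which Arntl was the 1 clock gene of 10. Nr1d2 gave r = 0.68 (exact p = 0.0986) and Dbp 0.55 (exact p = 0.213), Per1, Cry2, Clock and Nr1d1 lay between 0.23 and 0.36, and Per2 (-0.06), Per3 (-0.31) and Cry1 (-0.46) were below zero. The 2 regions were handled in separate library preparations.

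**Figure D3:**
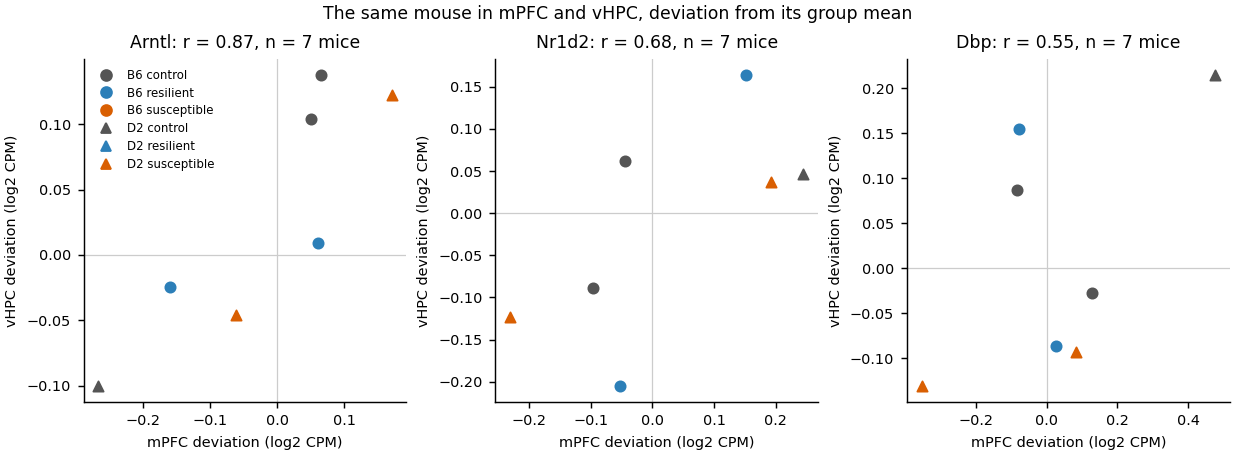
Deviation from the group mean in the vHPC (vertical axis) against that in the mPFC (horizontal axis) for Arntl, Nr1d2 and Dbp, in log2 CPM, 1 point for each of the 7 mice measured in both regions. Arntl deviated in the same direction in all 7 mice (r = 0.87), with looser relations for Nr1d2 (r = 0.68) and Dbp (r = 0.55).

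The second question was whether defeat or phenotype shifted the clock genes. In the mPFC Per1 was the 1 gene of 10 that passed, in B6 susceptible against resilient mice. Per1 was 4.35, 4.61 and 4.89 (lowest, median, highest log2 CPM) in B6 controls, 4.27, 4.51 and 4.64 in resilient mice, and 4.72, 4.92 and 5.04 in susceptible mice. Every susceptible mouse lay above every resilient mouse, and the controls overlapped both. The difference was 0.44 log2 units (SE 0.10; limma, adjusted p = 0.0306), while 2.02% of all genes passed in that contrast. It no longer passed with library set as a covariate (0.44; limma, adjusted p = 0.0915), and the limma adjusted p rose to between 0.0509 and 0.0866 when any of 7 mice was left out, namely resilient replicates 2, 3, 4 and 6 and susceptible replicates 2, 5 and 6, with differences of 0.40 to 0.45. The oligodendrocyte marker sum was 10.57 to 11.33 in the resilient and 10.02 to 10.64 in the susceptible mice, with all 5 markers measured, and its part in this difference was not tested.

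No clock gene passed in the other stress contrasts of the mPFC. In B6 susceptible against control mice, where 2.22% of all genes passed, 4 of the 10 had an unadjusted p under 0.05, as did 18.2% of all genes, and Per1 had the lowest, at 0.27 log2 units (SE 0.10; limma, adjusted p = 0.154). In B6 resilient against control mice (0% of genes, 731 at an unadjusted p under 0.05), D2 susceptible against control mice (0%, 734) and the strain by stress interaction (0%, 1766), 0 of the 10 had an unadjusted p under 0.05. The lowest p-values were those of Per1 at -0.17 and 0.18 in the first contrasts and Nr1d1 at -0.40 in the interaction. None of the 22 other pathway genes passed in the stress contrasts of the mPFC.

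In the BNST without TMM factors 3 clock genes passed in the interaction, in a fit whose share of all genes is not given. With TMM scaling over all libraries no clock gene passed in any of 8 contrasts. The share of all genes that passed in edgeR was 0.00571% in B6 susceptible against resilient mice, 2.51% between the control strains, and 0% in B6 resilient against control (328 at an unadjusted p under 0.05), B6 susceptible against control (1115), D2 susceptible against control (1056), D2 resilient against control (953) and D2 susceptible against resilient mice (230), and in the interaction (2004). Per3 had the lowest p of the 10 in 5 of these contrasts. Its log2 CPM was 5.98 to 6.41 in B6 controls, 5.79 to 6.17 in B6 resilient mice and 5.41 to 5.92 in B6 susceptible mice, so that susceptible mice all lay below the controls. In D2 mice it was 5.77 to 5.98 in controls and 5.87 to 6.17 in susceptible mice, and the 3 resilient mice were at 5.75, 6.65 and 6.67.

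The difference in Per3 was -0.45 log2 units (SE 0.14) in B6 susceptible against control mice (edgeR, unadjusted p = 0.00378, adjusted p = 0.692) and 0.18 in D2 mice, and the interaction was 0.63 (edgeR, unadjusted p = 0.00402, adjusted p = 0.186). D2 resilient against control mice gave 0.54 for Per3 (edgeR, unadjusted p = 0.00237, adjusted p = 0.846), B6 resilient against control mice -0.23 and D2 against B6 controls -0.33. Elsewhere the lowest p belonged to Cry2 in B6 susceptible against resilient mice (-0.31; edgeR, adjusted p = 0.68) and to Arntl in D2 susceptible against control (0.32) and against resilient mice (0.56). Without BNST D2 control replicate 2 the first of these Arntl differences was 0.20, as it was without both libraries that stood apart, and without TMM factors it was 0.61. Without the 2 libraries that stood apart Cry2 passed in B6 susceptible against resilient mice, at -0.38 (edgeR, adjusted p = 0.0326).

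**Figure D4:**
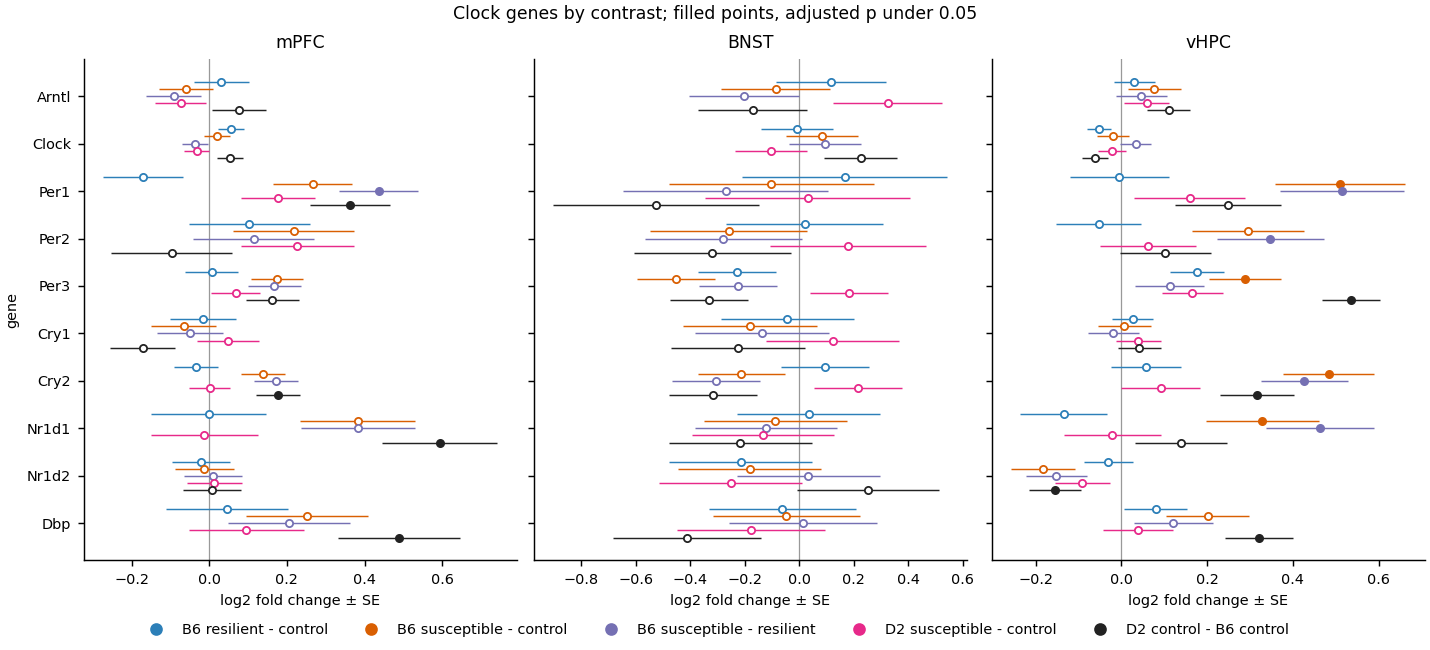
Log2 difference (horizontal axis) of each of the 10 clock genes (vertical axis) in 5 contrasts, 1 color per contrast and 1 panel per region, with bars of 1 SE and filled points where the adjusted p is under 0.05. The filled points are Per1 in B6 susceptible against resilient mice of the mPFC, 4 genes in each of the B6 susceptible contrasts of the vHPC, and 4 genes in the control strain contrast of the mPFC and of the vHPC.

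In the vHPC 4 of 10 clock genes were higher in B6 susceptible mice than in controls, among 40.64% of all genes that passed. The genes were Cry2 by 0.48 log2 units (SE 0.11; limma, adjusted p = 0.00104), Per1 by 0.51 (SE 0.15; adjusted p = 0.00982), Per3 by 0.29 (SE 0.08; adjusted p = 0.00834) and Nr1d1 by 0.33 (SE 0.13; adjusted p = 0.0494). The 3 susceptible mice had Per1 values of 5.67, 5.71 and 5.75 against 5.00 to 5.37 in controls, Cry2 values of 6.46, 6.49 and 6.55 against 5.93 to 6.09, and Nr1d1 values of 5.02, 5.09 and 5.17 against 4.62 to 4.86. The groups did not overlap for these genes, in a contrast where a large share of the transcriptome was called. The Nr1d1 call was lost when any of 21 of the 28 mice was left out (differences of 0.29 to 0.36), and that of Per3 without susceptible replicate 3 (0.25; limma, adjusted p = 0.0547).

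Against resilient mice 4 of 10 were higher in the susceptible mice, among 27.63% of all genes. With only the groups compared none of the 4 passed (limma, adjusted p of 0.0742 to 0.154). The genes were Cry2 by 0.43 (SE 0.10; limma, adjusted p = 0.00694), Nr1d1 by 0.46 (SE 0.13; adjusted p = 0.0122), Per1 by 0.52 (SE 0.15; adjusted p = 0.0139) and Per2 by 0.35 (SE 0.12; adjusted p = 0.0407). The resilient mice were spread widely, with Per1 from 4.61 to 5.69 and a median of 5.07, and 3 of 8 at 5.48 or above. Leaving out susceptible replicate 2 left 1 gene called, and leaving out susceptible replicate 3 left 2. The share of all genes is not given for these fits or for that of only the groups compared. The Per2 call was lost without any of 8 mice, the susceptible replicates 1, 2 and 3 and the resilient replicates 1, 2, 3, 5 and 6 (differences of 0.27 to 0.36).

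In the vHPC, control and defeated B6 mice were prepared in separate library sets. None of the 9 library sets that held B6 mice held both control and defeated mice, so the set and the defeat cannot be told apart within B6, and 1 of 6 sets held both in D2 mice. With library set as a covariate none of these genes passed, the differences from controls being 0.65 for Cry2 (limma, adjusted p = 0.408), 0.59 for Per1 (adjusted p = 0.598), 0.36 for Per3 (adjusted p = 0.567) and 0.31 for Nr1d1 (adjusted p = 0.748). With sequencing set as a covariate 5 of 10 passed against controls and 3 against resilient mice. The share of all genes in these fits is not given, so the counts cannot be set against it. Marker sums also separated these mice. The oligodendrocyte sum was 10.79 to 10.99 in B6 susceptible mice, 11.10 to 11.70 in resilient mice and 11.54 to 11.72 in controls, the cortical sum was 7.50 to 7.62, 6.72 to 7.42 and 6.79 to 7.207, with all 5 markers of each list measured, and the choroid plexus sum ranged from 5.34 to 11.02 among the controls alone. Their part in these differences was not tested.

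The remaining vHPC stress contrasts gave 0 of 10. These were B6 resilient against control mice, with 10.84% of genes, D2 susceptible against control mice, with 4.28%, and the interaction, with 0.782%. The lowest p in each belonged to Per3 at 0.18 (limma, adjusted p = 0.0784), Per3 at 0.17 (adjusted p = 0.221) and Cry2 at -0.39 (adjusted p = 0.171), and 1 of the 10 had an unadjusted p under 0.05 in each. Of all genes 24.2%, 17.6% and 18.4% did. With only the groups compared, 3 of 10 passed in the interaction, Cry2 among them (limma, adjusted p = 0.0122). The share of all genes in that fit is not given. Per3 passed in B6 resilient mice when B6 control replicate 4 (0.21; limma, adjusted p = 0.0462) or B6 resilient replicate 6 (0.22; adjusted p = 0.00771) was left out.

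Among the 22 other pathway genes in the vHPC, 11 passed in B6 susceptible against control mice, where 40.64% of all genes did. Higher were Bhlhe41 (0.57 log2 units), the kinase Gsk3b (0.50), the Dbp relative Hlf (0.43), Npas2 (0.35), Nfil3 (0.26) and Rorb (0.20), and among the lower were the NAD enzyme Nampt (-0.34), Fbxl21 (-0.26), Fbxw11 (-0.24) and Btrc (-0.12), the last 3 being parts of ubiquitin ligases. Against resilient mice 7 passed, 5 higher and 2 lower, where 27.63% of all genes passed. In resilient against control mice 2 were lower, Btrc (-0.10) and Fbxl21 (-0.20), where 10.84% of all genes passed. None passed in D2 susceptible against control mice (4.28% of all genes) or in the interaction (0.782%).

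**Figure D5:**
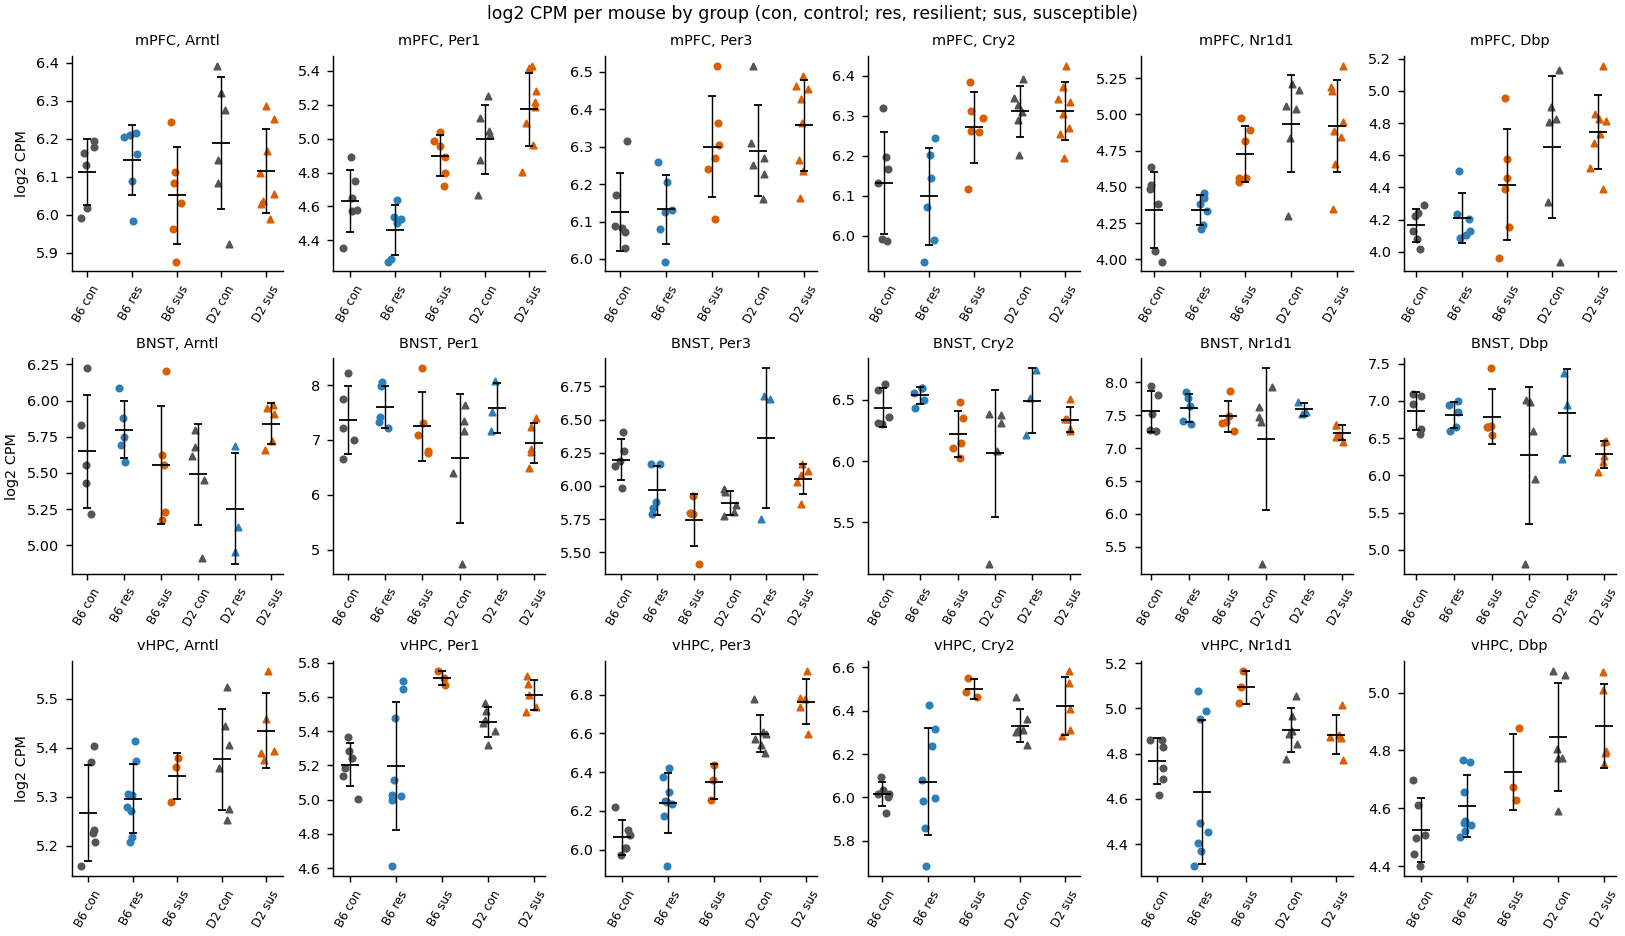
Log2 CPM (vertical axes) of 6 of the clock genes in every mouse, by group (horizontal axes) and region, circles for B6 and triangles for D2 mice, with lines for the group mean and SD. Per1, Cry2 and Nr1d1 of the 3 vHPC B6 susceptible mice lie above all vHPC B6 controls, and in the mPFC Dbp and Nr1d1 spread over a wider range in D2 than in B6 controls.

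The third question was whether the strains differed without stress. In the mPFC 4 of 10 clock genes were higher in D2 than in B6 controls, where 27.79% of all genes passed. Nr1d1 was higher by 0.59 log2 units (SE 0.15; limma, adjusted p = 0.00293), Dbp by 0.49 (SE 0.16; adjusted p = 0.0202), Per1 by 0.36 (SE 0.10; adjusted p = 0.00826) and Cry2 by 0.18 (SE 0.06; adjusted p = 0.0188). Nr1d1 ran from 3.98 to 4.64 in B6 and from 4.301 to 5.21 in D2 controls, with medians of 4.43 and 5.05. The strains overlapped for Nr1d1 and Dbp, the D2 mouse with the highest Arntl lying below every B6 control in Dbp. Without B6 control replicate 3 or 5 Cry2 no longer passed (limma, adjusted p = 0.0601 and 0.0577), nor did Dbp without D2 control replicate 6 (0.39; adjusted p = 0.0602). The oligodendrocyte sum was 10.497 to 11.43 in B6 and 9.89 to 10.45 in D2 controls, and its part was not tested.

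In the vHPC 4 of 10 passed between the control strains, where 59.32% of all genes did. Per3 was higher in D2 mice by 0.54 (SE 0.07; limma, adjusted p = 2.67e-07), with 6.5 to 6.78 in D2 and 5.97 to 6.22 in B6 controls and no overlap. Dbp (0.32, SE 0.08; adjusted p = 0.00112) and Cry2 (0.32, SE 0.09; limma, adjusted p = 0.00311) were also higher, and Nr1d2 was lower by 0.16 (SE 0.06; limma, adjusted p = 0.0298). The Nr1d2 call was lost without D2 control replicate 2 or 3 or B6 control replicate 1, 2 or 6 (differences of -0.15 to -0.13). With library set as a covariate none passed, Per3 being at 0.62 (limma, adjusted p = 0.172). The oligodendrocyte sum was 11.54 to 11.72 in B6 and 10.23 to 10.87 in D2 controls, the cortical sum 6.79 to 7.207 and 7.36 to 7.59, and the astrocyte sum 10.44 to 10.52 and 10.11 to 10.195, with no overlap, and their part was not tested. In the BNST 0 passed.

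Of the other pathway genes 8 of 22 passed between the control strains in the mPFC, where 27.79% of all genes did. In the vHPC 13 of 22 passed, where 59.32% of all genes did. In the mPFC Bhlhe41 (0.55), Usp2 (0.34), Noct (0.26) and Gsk3b (0.22) were higher in D2 mice, and among the lower were the Arntl paralog Arntl2 (-0.45), and Csnk1e and Btrc (-0.16 each). In the vHPC 6 were higher and 7 lower.

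Some exons are shared with other genes, and whether reads were counted by strand is not stated in the sources used here. Sphk2, on the opposite strand, overlapped 18% of the exon bases of Dbp, and Thra overlapped 8.55% of those of Nr1d1. D930015M05Rik overlapped 4.67% of those of Cry2, and Gm45355 0.439% of those of Arntl. Reads from these stretches cannot be assigned with certainty.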

How the data were processed

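RNA-seq of 3 brain regions was deposited as 1 table per region. Per the study's methods, the genome build was GRCm38, the aligner STAR and the counter HTSeq on exons, and the authors had cleared the reads of duplicates beforehand. For the BNST the authors deposited raw read counts per gene. For the mPFC and vHPC the authors deposited log2 CPM values from voom, after removing genes of low abundance and running ComBat on the library sets (both regions) and on the sequencing sets (vHPC). An adjustment of this kind can change any group difference that follows the sets. Whether the phenotype groups were kept in its model is not stated in the sources used here, so the direction of the change is not known. The later test does not count the degrees of freedom that the adjustment used. Library kits were ScriptSeq v2 (mPFC), Ovation (BNST) and Nextera (vHPC). Every column matched 1 sample by its mouse ID, 0 columns were left unused, and 0 columns held duplicate values.

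Samples were grouped by the strain and CSDS phenotype of their labels, and library and sequencing sets were taken from the study's sample list. The log2 values were fitted with limma 3.58.1 (robust empirical Bayes, a mean per group). BNST counts were filtered at 1 CPM or more in at least 6 libraries (17515 genes left), TMM-scaled and fitted with the robust quasi-likelihood test of edgeR 4.0.16, and log2 CPM used a prior count of 0.5. P-values were adjusted over all genes tested by Benjamini-Hochberg, and an adjusted p under 0.05 was called. To ask what followed Arntl or Dbp, its log2 value was added to the group means as a covariate, with Pearson's r and Spearman's rho of deviations from group means and two-sided permutation of mice within groups. Alternatives included DESeq2 1.42.0 for the counts. Scripts used R 4.3.3, Python 3.11.15 and scipy 1.17.1 and were tested on simulated data.

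BNST depth was 11825757 to 25793910 counts per library. The mPFC and vHPC tables give no depth, and the numbers of analyzed reads that the study lists were not used here. All 10 clock genes are named, with the called members of each contrast, or the one with the lowest p where none was called, the called genes of the 22 other pathway genes, and the 5 genes with the highest and lowest statistics for each anchor. In the vHPC fit on Dbp, where nothing passed, the first on each side is given. Some genes that the rule would name are not reported here. The members and lists were chosen with earlier results of these data known. P-values measure the spread between mice. The Rora gene on the thalamic and Rorb on the cortical marker list are also on the pathway list.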

Additional observations from a re-analysis of the deposited data

Results flagged for a closer look

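In 140 groups of 4 to 10 mice, 8 values lay so far from their nearest neighbor, relative to the range of the group, that they pass Dixon's 95% critical value, a test that chance passes in about 1 of 20 groups. Of these 3 came from BNST D2 control replicate 2, which had a Clock of 8.03 log2 CPM as the highest of its group (next 7.29), and a Cry2 of 5.16 (next 6.08) and an Nr1d1 of 5.24 (next 7.40) as the lowest. In BNST B6 susceptible mice, replicate 3 had a Dbp of 7.44 (next 6.67) and replicate 2 a Clock of 7.39 (next 7.26) as the highest, and replicate 4 a Per3 of 5.41 as the lowest (next 5.79). In the mPFC, B6 resilient replicate 6 had the highest Dbp of its group at 4.50 (next 4.24). In the vHPC, B6 resilient replicate 4 had the highest Clock at 7.77 (next 7.696). No strain by stress interaction of a clock gene passed in any region in the main fits. With only the groups compared 3 clock genes did so in the vHPC, and without TMM factors 3 did in the BNST. The share of all genes in those alternative fits is not given.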

How the results depend on the processing

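Over the alternatives other than leaving out 1 mouse, 203 of the fold changes of named clock genes kept their direction and side of the threshold, 21 fell short of it, 3 came to pass and 1 reversed, and of the correlations 397 were kept, 45 fell short, 29 moved, 7 came to pass and 2 reversed. Alternatives that use the 2 BNST libraries that stood apart or the first principal component of within-group deviations were chosen after seeing the data. The cause of a change was not tested.

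Gene counts in this paragraph are of the 10 clock genes, and the share of all genes in these settings is not given. The mPFC count in B6 susceptible against resilient mice, where Per1 was called, went from 1 to 0 in 3 settings. These were library set as a covariate, the prefix of the mouse ID as a covariate, and a fit of only the groups compared. Without 1 mouse the count stood at 0 to 1. The strain difference of the mPFC fell to 2 genes when only the groups compared were fitted. In the BNST, B6 susceptible against resilient mice gave 1 gene without the 2 libraries that stood apart, and the interaction gave 3 without TMM factors. With library set the vHPC counts were 0 for B6 susceptible against control, 0 against resilient mice and 0 between strains, where Nr1d2 turned to 0.0017. With only the groups compared, B6 susceptible against resilient mice gave 0 genes and the interaction 3. Without 1 mouse, vHPC B6 resilient against control mice gave 0 to 1 genes and susceptible against resilient mice 1 to 5.

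For the mPFC pair of Arntl and Dbp the direction was kept in all settings run, and the adjusted p rose above 0.05 in B6 mice alone (r = -0.65), D2 mice alone (-0.84), control mice alone (-0.82), defeated mice alone (-0.72) and without the 2 mice farthest in Arntl (-0.73), all with fewer mice. Of the 9 clock genes, 0 were called with Arntl in the mPFC in each of these settings, where at most 0.0158% of all genes passed. Called were 2 with the mouse ID prefix (0.132% of all genes), 2 with quantile normalization (0.0158%) and 2 with the first component (0.227%). With Dbp in the mPFC 5 of the 9 were called with the prefix (1.45% of all genes) and 1 without the 2 mice farthest in Dbp (0.0422%). In B6, D2, control or defeated mice alone 0 were called, where at most 0.00528% of all genes passed. In the BNST the same pair gave 0.65 with the prefix, 0.63 in B6 mice alone and 0.47 under limma with a mean trend, each of which passed, and turned to -0.46 with the first component, and it ranged from 0.26 to 0.67 without 1 mouse. The vHPC value ranged from -0.57 to -0.40 without 1 mouse. Clock genes called with Arntl in the BNST were 0 in D2 mice alone (0% of all genes) and 2 in defeated mice alone (6.07%). They were 2 without the 2 mice farthest in Arntl (12.02%) and 2 without the 2 libraries that stood apart (5.42%). With the first component 0 were called (0%), and Nr1d1 turned to -0.18. Clock genes called with Dbp there were 4 in B6 mice alone (22.48% of all genes), 4 in defeated mice alone (11.4%) and 4 without TMM factors (27.25%). They were 1 without the 2 libraries (4.2%) and 0 with the first component (0%), where Nr1d2 turned to 0.0042.

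No paired analysis between groups was possible. The replicate numbers only name the mice of a group in order and pair no mouse of one group with a mouse of another. The 7 mice measured in both the mPFC and the vHPC were matched by mouse ID within their own groups. Where a covariate left a contrast without an estimate, none is given. The mPFC and vHPC tables hold no counts, and the read numbers that the study lists were not used here. No counting error was therefore put on the mPFC and vHPC values.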
